A study of Mus musculus with 24 samples.

Results

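Messenger RNA of 9 cytokine-induced genes was followed in splenic CD4+ T cells of the mouse before and after stimulation of the T cell receptor. The genes are Socs1, Socs2, Socs3, Socs4, Socs5, Cish, Pim1, Pim2 and Pim3. They were taken from the deposited gene table by the Ensembl identifiers that the annotation gives to these symbols, and all 9 of 9 were found among 54446 identifiers. All 9 passed the filter on low counts, as did 15325 genes in all.

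The cells came from the spleens of 6 mice of the C57BL6 background. Mice WT 1, WT 3 and WT 4 were labelled wild type, and mice 1, 2 and 4 of the other group carried the Aim2-/- genotype, which lacks a cytosolic DNA sensor. Cells of each mouse were sequenced unstimulated (0 h) and 3, 6 and 24 h into culture with anti-CD3/CD28, antibodies that trigger the T cell receptor complex and a co-stimulatory receptor, so the 24 libraries form 8 groups of 3 mice. The study's methods describe anti-CD3 bound to the plate and soluble anti-CD28. No library came from cells cultured without these antibodies, so effects of stimulation and of time in culture cannot be told apart. They state that animals were matched by age and sex, without giving ages, and nothing says whether mice shared a litter. The question put to the genotypes in the study was how loss of AIM2 alters CD4+ T cells.

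Cytokines act on T cells through receptors that carry Janus kinases, which phosphorylate STAT transcription factors, and STATs switch on the genes of their own brakes. The proteins made from Cish and the Socs genes bind phosphorylated receptors or kinases through an SH2 domain and recruit a ubiquitin ligase through a SOCS box. SOCS1 and SOCS3 can also block the kinase itself. PIM1, PIM2 and PIM3 are serine/threonine kinases that need no activating step, so their activity follows the amount of protein, and they favour survival, growth and division.

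Library totals lay between 19715161 and 21627018 counts, and 3 counts, taken as the floor of detection, were worth 0.129 to 0.155 CPM (counts per 1000000 counts of the library), a limit for counting error only. The targeted gene Aim2 was low in 1 mouse labelled WT. Its level at 0 h was 75.0 CPM in mouse WT 3, 67.5 CPM in mouse WT 4 and 21.5 CPM in the mouse labelled WT 1, beside 15.7, 20.1 and 19.0 CPM for Aim2-/- mice. The mouse labelled WT 1 lay above the Aim2-/- range at 3 h (17.0 against 14.6 to 15.1 CPM) and at 6 h (11.5 against 8.17 to 11.4 CPM). At 24 h the mouse labelled WT 1 was at 5.57 CPM, within the Aim2-/- range of 5.28 to 7.15 CPM. With all 6 mice Aim2 was not called between genotypes at any time by edgeR (adjusted p 0.078 to 0.22). Called genotype differences are therefore given with and without that mouse. Markers of CD4 T cells were high in all libraries, with a summed level of 6 genes of 3509 to 3706 CPM in WT and 3672 to 3911 CPM in Aim2-/- cells at 0 h. Markers of other cells differed between genotypes. The sum of 7 B cell markers was 397 to 820 CPM in WT and 4485 to 6401 CPM in Aim2-/- cells at 0 h, with 5 of the 7 genes higher in every Aim2-/- than in every WT library, and 418 to 519 against 827 to 1987 CPM at 24 h. At 0 h the sum of 7 myeloid markers was 38.5 to 62.4 against 124 to 396 CPM, that of 6 erythroid markers 7.7 to 71.8 against 21.1 to 336 CPM, and that of 4 basophil and mast cell markers 7.04 to 9.81 against 51.7 to 99.3 CPM. Sums of 2 CD8 T cell markers (9.76 to 11.4 against 8.12 to 10.9 CPM) and of 4 NK cell markers (34.1 to 46.9 against 38.9 to 69.8 CPM) overlapped at 0 h. No listed marker was at 0 in all libraries of a group. In such bulk samples fewer cells of a type and less RNA per cell cannot be told apart.

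Cish and Socs3 were the genes among 7 with a promoter in the reference table that hold the motif TTCNNNGAA, which STAT proteins are known to bind and which reads the same on both strands. The table gives 8 promoters for these 7 genes and none for Socs2 or Socs5. A set of 3 is printed because Cish and Socs1 were the pair of family members whose transcripts rose together, whereas Socs3 fell. Each line is the 180 bases from 160 before the RefSeq start of transcription to 20 after it, 5′ to 3′ on the strand of the gene, with the motif in capitals.
Cish (GRCm38.p6, chr9:107296499-107296678, plus strand): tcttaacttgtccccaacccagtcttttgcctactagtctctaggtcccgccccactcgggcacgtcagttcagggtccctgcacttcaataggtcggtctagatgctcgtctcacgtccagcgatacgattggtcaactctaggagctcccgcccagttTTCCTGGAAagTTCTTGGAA
Socs1 (GRCm38.p6, chr16:10785517-10785696, minus strand): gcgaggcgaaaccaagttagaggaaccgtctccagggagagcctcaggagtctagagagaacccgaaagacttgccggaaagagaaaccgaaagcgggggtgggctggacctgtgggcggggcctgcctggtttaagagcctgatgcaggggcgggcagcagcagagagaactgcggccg
Socs3 (GRCm38.p6, chr11:117969347-117969526, minus strand): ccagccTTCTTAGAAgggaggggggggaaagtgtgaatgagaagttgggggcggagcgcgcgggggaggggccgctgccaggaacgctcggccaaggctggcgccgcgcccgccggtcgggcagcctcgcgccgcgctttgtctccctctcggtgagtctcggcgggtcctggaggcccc
Cish held 2 matches, with first bases at 1 and 12 counted from the start, and Socs3 held 1, at -154. Over the 300 bases from 250 before to 50 after the start, 8.3% of 32851 mouse promoters held at least 1 match and 0.457% held 2 or more. With a spacer longer by 1 base between the same arms the share of all promoters was 6.95%, with 0 of the 8 member promoters, and the E-box CACGTG was in 7.15% of all and in 1 of the 8, a promoter of Pim1. A match is a description of letters in this window, and its absence says nothing of sites elsewhere.

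Before stimulation Pim1 and Socs3 were the most abundant of the 9 transcripts. To compare genes, CPM were divided by the merged exon length in kb, and all levels in this paragraph are such CPM per kb, with the SD over 3 mice. In WT cells at 0 h Pim1 was at 211 ± 13.0, Socs3 at 116 ± 12.0, Pim3 at 31.4 ± 5.18 and Cish at 21.7 ± 2.55. Cish overlapped with the next gene, Pim2, at 17.9 ± 1.54, and the other neighbours in the order did not overlap. Below them stood Socs4 (11.4 ± 0.681), Socs1 (6.69 ± 0.695), Socs5 (4.82 ± 0.542) and Socs2 (0.659 ± 0.121). After 24 h the order had changed, with Pim2 first at 107 ± 8.89 and Pim1 second at 78.2 ± 7.02. Cish (69.9 ± 7.04), Socs1 (57.1 ± 8.23) and Pim3 (56.3 ± 2.01) followed, and from Pim1 to Pim3 each gene overlapped with the next. Socs3 had dropped to sixth place at 18.0 ± 3.98, and Socs4 (7.78 ± 0.297), Socs5 (3.88 ± 0.235) and Socs2 (2.22 ± 0.471) were the lowest, Socs4 in place of Socs1 of 0 h. In Aim2-/- cells Pim1 (232 ± 7.57) and Socs3 (164 ± 6.6) also led at 0 h, and Pim2 (96.5 ± 4.69) led at 24 h. Division by the longest transcript kept the WT order at 0 h and 24 h, and moved Socs2 at 0 h from 0.659 to 1.48.

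**Figure D1:**
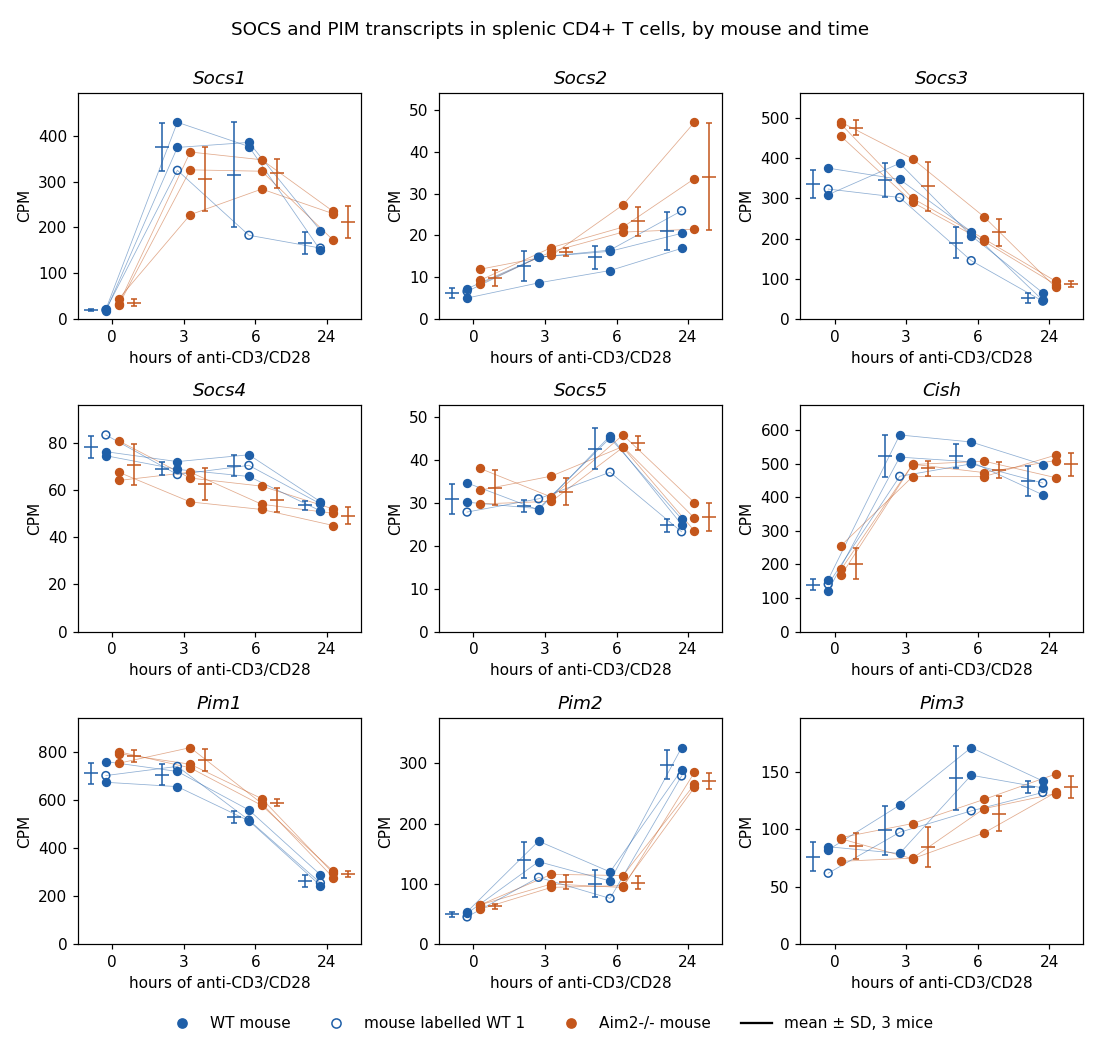
Level of each transcript in CPM (vertical axis, from 0) against hours of stimulation (horizontal axis, evenly spaced), with 1 point per mouse, thin lines joining libraries of a mouse, and bars for the mean ± SD of 3 mice. Socs1 and Cish jumped by 3 h in every mouse, Pim2 was highest at 24 h, and Socs3 and Pim1 were lowest at 24 h.

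In WT cells the 9 genes split by direction over the hours of stimulation. Socs1, Socs2, Cish and Pim2 were higher from 3 h onwards, Pim3 from 6 h, and Socs3 and Pim1 were lower from 6 h. Socs4 was lower at 24 h, and Socs5 was higher at 6 h and lower at 24 h. By edgeR's quasi-likelihood test with Benjamini-Hochberg adjustment over all tested genes, 4 of 9 members were called at 3 h (4 higher, 0 lower), where 32.6% of all genes were called (16.2% higher, 16.4% lower, and 21.9% and 11.8% with library totals as scaling). At 6 h 8 of 9 were called (6 higher, 2 lower) against 51.1% of all genes (26.4% higher, 24.8% lower), and at 24 h 9 of 9 (5 higher, 4 lower) against 71.4% (36.6% higher, 34.8% lower). The median log2 fold change of the members was 0.38 at 3 h and 0.84 at 24 h, beside 0.015 and -0.013 for all tested genes.

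Socs1 (ENSMUSG00000038037, chr16:10782240-10785536, minus strand), the brake of interferon and common gamma chain signalling, had the largest rise of the 9. In mice WT 1, WT 3 and WT 4 it was at 19.8, 21.3 and 17.3 CPM at 0 h and at 325, 430 and 375 CPM at 3 h. At 6 h the values were 183, 377 and 386 CPM, and at 24 h 155, 150 and 193 CPM. Every stimulated library lay above every unstimulated one, and 24 h lay below 3 h in each of these WT mice. Relative to 0 h the log2 fold change was 4.27 (adjusted p = 3.7e-10, SE 0.26) at 3 h, 4.02 (SE 0.26) at 6 h and 3.09 (adjusted p = 3.67e-10, SE 0.25) at 24 h. From 6 to 24 h it fell by 0.92 (adjusted p = 0.00143, SE 0.22). In the Aim2-/- mice 1, 2 and 4 Socs1 went from 44.0, 30.6 and 32.9 CPM at 0 h to 228, 326 and 365 CPM at 3 h, and stood at 230, 172 and 235 CPM at 24 h. There the log2 fold changes were 3.10 (SE 0.24) at 3 h, 3.15 (SE 0.24) at 6 h and 2.57 (SE 0.24) at 24 h.

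Cish (ENSMUSG00000032578, chr9:107296026-107302784, plus strand), which encodes CIS, a brake on interleukin-2 and T cell receptor signalling, rose early and stayed high. Its WT values were 141, 122 and 155 CPM at 0 h, 462, 519 and 585 CPM at 3 h, and 442, 407 and 497 CPM at 24 h. The lowest stimulated WT library was above the highest unstimulated one by a wide margin, and values at 3 and 6 h overlapped, as did those at 3 and 24 h. The log2 fold changes were 1.90 (adjusted p = 1.97e-09, SE 0.13) at 3 h, 1.91 (SE 0.13) at 6 h and 1.69 (SE 0.13) at 24 h. Aim2-/- cells started from 256, 167 and 185 CPM and reached 461, 497 and 498 CPM at 3 h, with log2 fold changes of 1.26 (SE 0.13), 1.25 (SE 0.13) and 1.29 (SE 0.13). Antisense transcripts that share exonic bases with Cish and Pim1 held at most 356 counts over all libraries, against 207012 for Cish and 290989 for Pim1, and whether counting used the strand is not given in the sources used here.

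Socs2 (ENSMUSG00000020027, chr10:95385362-95417180, minus strand), best known as the brake of growth hormone signalling, rose from the lowest level of the 9. WT cells had 6.60, 5.01 and 7.25 CPM at 0 h and 25.9, 16.9 and 20.5 CPM at 24 h. All 6 mice were higher at 3, 6 and 24 h than at 0 h. The log2 fold change was 1.02 (adjusted p = 0.00425, SE 0.26) at 3 h and 1.75 (SE 0.26) at 24 h in WT, and 0.72 (adjusted p = 0.0351, SE 0.25) and 1.79 (SE 0.25) in Aim2-/- cells. The call of Socs2 at 3 h in Aim2-/- cells was lost without Aim2-/- mouse 2 (adjusted p = 0.124), Aim2-/- mouse 4 (0.232) or mouse WT 4 (0.0551) by edgeR and with limma-voom (0.063).

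Socs3 (ENSMUSG00000053113, chr11:117966079-117970047, minus strand), the brake of interleukin-6 receptor signalling, ran in the opposite direction. In WT cells it was at 323, 375 and 309 CPM at 0 h, 302, 347 and 387 CPM at 3 h, 145, 217 and 207 CPM at 6 h and 44.3, 46.3 and 65.1 CPM at 24 h. The groups at 0 and 3 h overlapped, and 24 h lay below all other times. Its log2 fold change was 0.04 (adjusted p = 0.884, SE 0.16) at 3 h, -0.82 (adjusted p = 0.000251, SE 0.17) at 6 h and -2.69 (adjusted p = 1.7e-11, SE 0.18) at 24 h. In Aim2-/- cells it was at 484, 489 and 454 CPM at 0 h, 300, 398 and 290 CPM at 3 h and 94.0, 78.5 and 85.5 CPM at 24 h. All 3 Aim2-/- mice were lower at 3 h, by 0.53 on the log2 scale (adjusted p = 0.0179, SE 0.16), a call that was lost without Aim2-/- mouse 1 (adjusted p = 0.128) or mouse 4 (0.138) and with library totals as scaling (0.0525) by edgeR. At 24 h the log2 fold change was -2.47 (SE 0.17).

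Socs4 (ENSMUSG00000048379, chr14:47276931-47296102, plus strand) and Socs5 (ENSMUSG00000037104, chr17:87107679-87137839, plus strand), relatives with a long amino-terminal part, moved little. Socs4 was at 83.4, 74.6 and 76.3 CPM in WT cells at 0 h and at 54.2, 51.2 and 55.1 CPM at 24 h, without overlap. It fell by 0.55 (adjusted p = 3.66e-05, SE 0.10) on the log2 scale in WT and by 0.53 (SE 0.10) in Aim2-/- cells. Socs5 was at 27.9, 30.2 and 34.7 CPM at 0 h, 37.2, 45.2 and 45.7 CPM at 6 h and 23.3, 26.3 and 25.0 CPM at 24 h in WT cells. All 6 mice were above their own 0 h value at 6 h and below it at 24 h. Its log2 fold change in WT was 0.47 (adjusted p = 0.00169, SE 0.11) at 6 h and -0.31 (adjusted p = 0.02, SE 0.12) at 24 h, and in Aim2-/- cells 0.39 (SE 0.11) and -0.33 (SE 0.11). These Socs5 calls were fragile by edgeR. The WT call at 6 h was lost without mouse WT 3 (adjusted p = 0.0591), the WT call at 24 h without mouse WT 4 (0.112), and the Aim2-/- call at 24 h without Aim2-/- mouse 4 (0.0563), and the Aim2-/- call at 6 h without the filter on low counts (0.0501).

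The Pim transcripts exchanged places. Pim1 (ENSMUSG00000024014, chr17:29490753-29496112, plus strand) was at 701, 673 and 759 CPM in WT cells at 0 h and at 739, 655 and 718 CPM at 3 h. It then dropped to 516, 513 and 558 CPM at 6 h and to 255, 244 and 289 CPM at 24 h. The 3 h values overlapped those of 0 h, whereas 6 h and 24 h lay below both. On the log2 scale the fold change was -0.01 (adjusted p = 0.919, SE 0.08) at 3 h, -0.43 (adjusted p = 0.000112, SE 0.08) at 6 h and -1.43 (adjusted p = 1.97e-12, SE 0.08) at 24 h. The 3 WT mice changed by -1.46 to -1.39 and the 3 Aim2-/- mice by -1.44 to -1.40 at 24 h, the narrowest spread over the 6 mice among the 9 genes at that time. In Aim2-/- cells Pim1 was at 792, 752 and 800 CPM at 0 h, 748, 817 and 733 CPM at 3 h and 295, 277 and 303 CPM at 24 h.

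Pim2 (ENSMUSG00000031155, chrX:7878262-7883432, plus strand) rose by 3 h and again between 6 and 24 h. In WT cells it was at 45.4, 51.1 and 53.8 CPM at 0 h, 111, 137 and 171 CPM at 3 h, 76.1, 105 and 120 CPM at 6 h and 279, 326 and 289 CPM at 24 h. Each WT mouse was lower at 6 h than at 3 h, and 24 h lay above all other times. By the same test the log2 fold change was 1.48 (adjusted p = 2.4e-07, SE 0.15) at 3 h, 1.00 (SE 0.15) at 6 h and 2.57 (adjusted p = 5.29e-12, SE 0.16) at 24 h. From 3 to 6 h Pim2 fell by 0.48 (adjusted p = 0.0207, SE 0.15) in WT cells, a call lost without mouse WT 3 (adjusted p = 0.091) or WT 4 (0.0941) by edgeR, and differed by -0.03 (adjusted p = 0.922, SE 0.15) in Aim2-/- cells. Aim2-/- cells were at 58.1, 65.2 and 65.4 CPM at 0 h, 94.4, 116 and 100 CPM at 3 h and 260, 265 and 285 CPM at 24 h, with log2 fold changes of 0.72 (SE 0.15), 0.69 (SE 0.15) and 2.10 (SE 0.15) at 3, 6 and 24 h.

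Pim3 (ENSMUSG00000035828, chr15:88862186-88865726, plus strand) was at 61.8, 82.1 and 84.8 CPM in WT cells at 0 h, 97.4, 121 and 79.0 CPM at 3 h, and 132, 142 and 136 CPM at 24 h. At 3 h the groups overlapped and 1 WT mouse was lower than at 0 h, whereas at 24 h all 6 mice were higher. The log2 fold change in WT was 0.38 (adjusted p = 0.0977, SE 0.17) at 3 h, 0.92 (adjusted p = 0.000109, SE 0.17) at 6 h and 0.84 (SE 0.17) at 24 h. Aim2-/- cells had 91.7, 72.2 and 92.8 CPM of Pim3 at 0 h, 96.9, 118 and 126 CPM at 6 h and 132, 131 and 148 CPM at 24 h. There the log2 fold change was -0.01 (SE 0.17), 0.41 (adjusted p = 0.0515, SE 0.17) and 0.68 (adjusted p = 0.00133, SE 0.17). Pairing libraries of a mouse as a block brought Pim3 past the threshold by edgeR at 3 h in WT (adjusted p = 0.0175) and at 6 h in Aim2-/- cells (adjusted p = 0.00713).

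**Figure D2:**
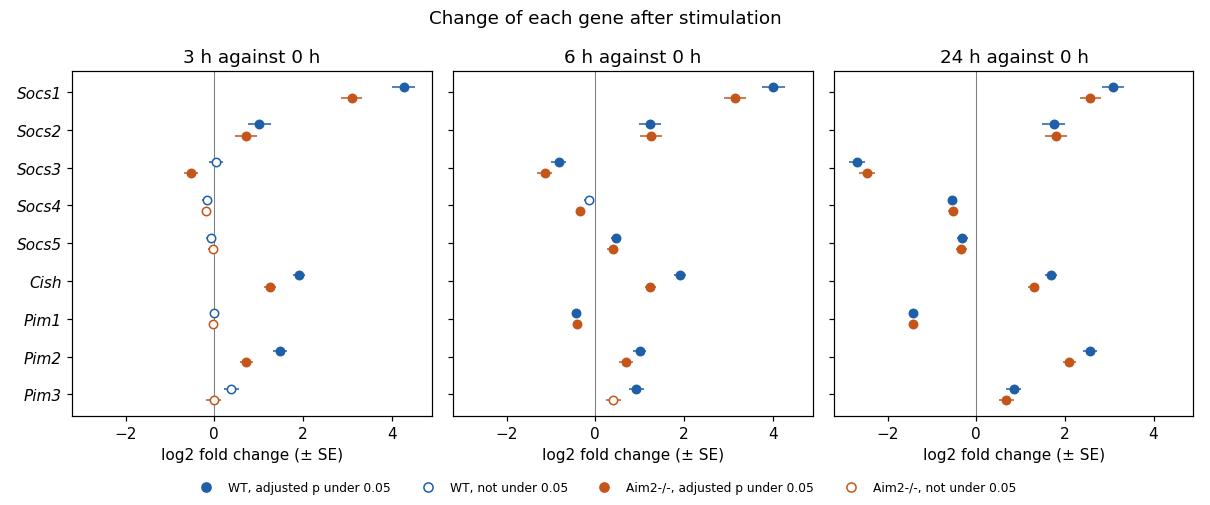
Log2 fold change against 0 h (horizontal axis, ± SE of the edgeR fit) of the 9 genes at 3, 6 and 24 h in WT and Aim2-/- cells, filled where the adjusted p was under 0.05. Socs1 lay farthest to the right at each time and Socs3 farthest to the left at 24 h, in both genotypes.

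As a share of the summed CPM of Pim1, Pim2 and Pim3, Pim1 made up 84.9% ± 1.66 (SD, n = 3) in unstimulated WT cells. At 3, 6 and 24 h this was 74.7% ± 3.17, 68.5% ± 4.02 and 37.7% ± 3.14. The share of Pim2 rose from 5.98% ± 0.363 to 42.7% ± 2.77, and that of Pim3 from 9.09% ± 1.31 to 19.6% ± 0.47. Their summed level was 837 ± 52.1 CPM at 0 h and 698 ± 27.3 CPM at 24 h. The Pim1 share in Aim2-/- cells went from 84.0% ± 0.534 to 41.8% ± 1.02. The summed level of Cish and Socs1 to Socs5 was 610 ± 15.9 CPM at 0 h, 1355 ± 137 at 3 h and 766 ± 81.4 at 24 h in WT cells.

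**Figure D3:**
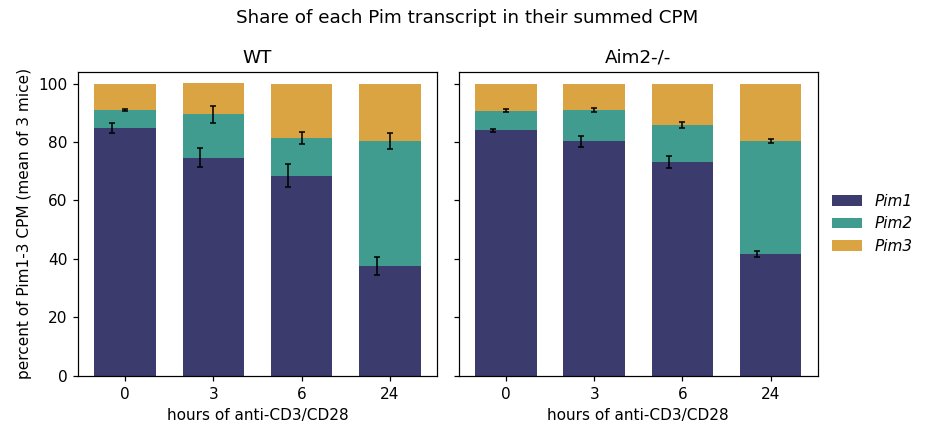
Stacked bars of the percent of summed Pim1, Pim2 and Pim3 CPM (vertical axis, mean of 3 mice) against hours of stimulation, with error bars of 1 SD at the upper edge of the Pim1 and Pim2 segments. Pim1 took 84.9% of the WT bar at 0 h and 37.7% at 24 h, and Pim2 went from 5.98% to 42.7%.

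In Aim2-/- cells at 3 h 5 of 9 members were called (4 higher, 1 lower), where 30.7% of all genes were called (16.1% higher, 14.6% lower, and 22.5% and 9.98% with library totals). At 6 h 8 of 9 (5 higher, 3 lower) were called against 51.2% (28.5% higher, 22.7% lower), and at 24 h 9 of 9 (5 higher, 4 lower) against 70.3% (36.8% higher, 33.5% lower). Between stimulated times, 5 of 9 members were called from 3 to 6 h in WT (25.7% of all genes) and 3 of 9 in Aim2-/- cells (23.3%), and from 6 to 24 h 6 of 9 (57.6%) and 5 of 9 (54.3%). Socs3, Socs5 and Pim1 were among the calls in all 4 of these comparisons. When the edgeR model also held marker scores (B cell, myeloid, erythroid), the calls at 24 h against 0 h were lost in WT for Socs4 (log2 fold change -0.49, adjusted p = 0.054), Socs5 (-0.17, adjusted p = 0.667) and Pim3 (0.44, adjusted p = 0.347), and in Aim2-/- cells for Socs5 (-0.23, adjusted p = 0.386) and Pim3 (0.30, adjusted p = 0.332). From 6 to 24 h in WT the calls of Socs1 (-0.91, adjusted p = 0.0967) and Socs4 (-0.37, adjusted p = 0.0526) were lost. At 24 h against 0 h the SE of Socs4 in WT was then 0.20, in place of 0.10. WT calls over all 15325 genes numbered 6308, in place of 10946. For Aim2-/- cells they numbered 7746, in place of 10778. Some marker sums also moved with time. The WT myeloid median was 58.5 CPM at 0 h but 12.3 CPM at 24 h. The Aim2-/- B cell median was 5101 CPM at 0 h but 1024 CPM at 24 h. A change under these terms therefore cannot tell marker content apart from time. The same terms put the log2 fold change of Socs2 at 24 h against 0 h at 3.15 in WT cells, in place of 1.75, and at 2.77 in Aim2-/- cells, in place of 1.79. They also brought Socs2 past the threshold from 6 to 24 h in WT (adjusted p = 0.0074) and Aim2-/- cells (0.93, adjusted p = 0.00343) and from 3 to 6 h in Aim2-/- cells (0.79, adjusted p = 0.0222).

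Over the 24 libraries the members fell into pairs. Pearson's r of log2 CPM was 0.968 between Socs1 and Cish and 0.97 between Socs3 and Pim1, and it was -0.848 between Pim1 and Pim2 and -0.82 between Socs3 and Pim2. Most of this came with time, since the libraries share mice and time points. After subtraction of the group means r was 0.483 for Socs1 and Cish, 0.367 for Socs3 and Pim1, 0.152 for Pim1 and Pim2 and 0.63 for Socs3 and Pim2, so the sign of the last 2 pairs turned. Among 8673 other genes with at least 10 CPM on average, the closest to Socs1 by r were Iigp1 (0.979), an interferon-inducible GTPase, and Gpr83 (0.961). Closest to Cish were Gadd45g (0.971) and Iigp1 (0.965), and to Socs2 the transcription factor gene Batf (0.948) and Ifng (0.943), the gene of interferon gamma. Socs3 lay nearest to Phf1 (0.979) and H2-D1 (0.978), and Pim1 to Abcb1a (0.992). For Pim2 the nearest were Nsmce1 (0.971) and Map4k1 (0.969), for Pim3 Nsfl1c (0.92) and Pfdn2 (0.916), for Socs4 Clock (0.964) and Zfp292 (0.962), and for Socs5 B2m (0.859) and Gpr65 (0.858). Each r is over 24 libraries and is a description.

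Around these genes, the cytokines, receptors, kinases and STATs moved unequally in WT cells. All changes named here were calls of the edgeR test. Of all tested genes, 16.2% were called higher and 16.4% lower at 3 h, and 36.6% and 34.8% at 24 h. Of 15 cytokine genes of the pathway 14 were tested, of which 7 were higher and 0 lower at 3 h, and 8 were higher and 2 lower at 24 h, with a median log2 fold change of 2.08 beside -0.013 for all genes. Il2, the gene of the main T cell growth factor, went from 1.59 ± 0.253 CPM to 145 ± 5.47 CPM at 24 h (log2 fold change 6.51), Il13 from 0.902 ± 0.498 to 22.7 ± 14.2 CPM (4.65), and Il4 reached 72.0 ± 26.2 CPM at 3 h from 4.21 ± 0.704 CPM (4.09). Il3 had no count in the WT libraries of 0 h, which allows up to 0.155 CPM, and was at 16.4 ± 4.24 CPM at 24 h. Of 19 cytokine receptor genes, 3 were higher and 14 lower at 24 h, and the median log2 fold change was -1.52. Il7r, the receptor for interleukin-7, fell by 4.86 from 945 ± 44.0 to 32.6 ± 7.66 CPM, and the interferon gamma receptor genes Ifngr1 and Ifngr2 fell by 3.74 and 3.13. Il12rb1 rose by 5.40 to 346 ± 14.4 CPM.

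Of 11 genes of Janus kinases and STATs, 2 were higher and 8 lower at 24 h, with a median log2 fold change of -1.01. Jak1 fell by 2.04 on the log2 scale, Stat5b by 1.95 and Stat4 by 1.78, whereas Stat2 rose by 1.79 at 3 h. Of 11 other brakes of the pathway, 4 were higher and 6 lower at 24 h (median -0.34). Ptpn6, which encodes the phosphatase SHP-1, rose from 74.7 ± 4.05 to 468 ± 27.7 CPM (log2 fold change 2.65), while Pias1 and Pias3, of the family of STAT inhibitors, fell by 1.33 and 1.34, and Pias2 fell by 1.02 at 3 h. All 6 genes listed as ubiquitin ligase components were higher at 24 h (median 0.85). Eloc was at 1.65, Elob at 1.11, Rnf7 at 0.99 and Rbx1 at 0.70 on the log2 scale. All 10 genes of PIM substrates and helpers were called at 24 h, 7 higher and 3 lower (median 1.60). The cell cycle phosphatase genes Cdc25a and Cdc25c rose by 2.71 and 4.52, the chaperone gene Hsp90aa1 rose by 2.50, and Cdkn1b, the gene of the cell cycle inhibitor p27, fell by 3.48. Of 9 other known STAT5 targets 6 were higher and 0 lower at 3 h, and 6 were higher and 2 lower at 24 h (median 2.32), with Gzmb (4.06), Lta (3.34) and Myc (3.11) up and Bcl6 (-3.25) down. These counts stand beside 32.6% of all genes called at 3 h and 71.4% at 24 h. In Aim2-/- cells at 24 h, higher and lower calls numbered 9 and 1 for the cytokines and 3 and 15 for the receptors. They numbered 1 and 8 for the kinases and STATs, 3 and 7 for the other brakes and 6 and 0 for the ligase. For the PIM substrates and helpers they were 7 and 3, and for the STAT5 targets 6 and 1. Of all genes 70.3% were called there (36.8% higher, 33.5% lower).

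Between the genotypes, the number of called members was 2, 0, 1 and 1 of 9 at 0, 3, 6 and 24 h. At 0 h Socs1 and Cish were called higher in Aim2-/- than in WT cells, 2 of 9 members where 5.23% of all genes were called (3.24% higher). Socs1 was at 44.0, 30.6 and 32.9 CPM in Aim2-/- against 19.8, 21.3 and 17.3 CPM in WT cells, and Cish at 256, 167 and 185 against 141, 122 and 155 CPM. Neither gene overlapped between the genotypes. The log2 fold change was 0.88 for Socs1 (adjusted p = 0.037, SE 0.24) and 0.54 for Cish (adjusted p = 0.0259, SE 0.13) by edgeR. Socs3 (484, 489 and 454 against 323, 375 and 309 CPM), Socs2 (11.9, 8.37 and 9.25 against 6.60, 5.01 and 7.25 CPM) and Pim2 (58.1, 65.2 and 65.4 against 45.4, 51.1 and 53.8 CPM) did not overlap either, at log2 fold changes of 0.50 (adjusted p = 0.0715), 0.64 (0.136) and 0.33 (0.186). Of all tested genes, 28.5% had no overlap at 0 h.

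These calls depended on the mice. Without the mouse labelled WT 1, Socs1 was at 0.89 (adjusted p = 0.022) and Cish at 0.55 (adjusted p = 0.0476) by edgeR at 0 h. Without Aim2-/- mouse 1, Socs1 was at 0.71 (adjusted p = 0.194) and Cish at 0.34 (0.193), and without Aim2-/- mouse 4 Socs1 was at 0.94 (0.0901) and Cish at 0.60 (0.0711). Without mouse WT 3 or WT 4 the adjusted p was 0.148 or 0.163 for Socs1 and 0.205 or 0.0688 for Cish. Calls over all genes at 0 h moved as well, from 802 of 15325. They were 160 of 15402 without Aim2-/- mouse 1 and 125 of 15595 without Aim2-/- mouse 4. Without mouse WT 3 they were 30 of 15669, and without WT 4 37 of 15643. They were 904 of 15656 without the mouse labelled WT 1 and 2139 of 15631 without Aim2-/- mouse 2. The B cell, myeloid and basophil marker sums given above move with genotype at 0 h. With B cell, myeloid and erythroid scores as terms, the log2 fold changes at 0 h were 1.00 for Socs1 (adjusted p = 0.126) and 0.51 for Cish (adjusted p = 0.183). Calls over all genes at 0 h then fell from 802 to 79. Since the B cell and myeloid terms move with genotype, a lost call cannot tell them apart. The part of the basophil markers was not tested.

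At 3 h 0 of 9 members were called between genotypes, where 0.294% of all genes were called. By edgeR without adjustment, 1 of 9 had a p under 0.05, as did 15.3% of all genes. It was Pim2, at -0.43 (SE 0.15, unadjusted p = 0.00821, adjusted p = 0.191). Without the mouse labelled WT 1 Pim2 was called at -0.57 (adjusted p = 0.0165), where 2.71% of all genes were called, and with the marker scores as terms it was at -0.27 (adjusted p = 0.691). At 6 h 1 of 9 was called, against 15.8% of all genes (7.01% lower). Socs4 was at 54.0, 61.7 and 51.8 CPM in Aim2-/- against 70.5, 65.8 and 75.0 CPM in WT cells, without overlap and with a log2 fold change of -0.33 (adjusted p = 0.0285, SE 0.10). At 24 h 1 of 9 was called, against 0.666% of all genes (0.659% higher). Socs3 was at 94.0, 78.5 and 85.5 CPM against 44.3, 46.3 and 65.1 CPM, also without overlap, with a log2 fold change of 0.73 (adjusted p = 0.0481, SE 0.17). Without the mouse labelled WT 1, Socs4 was at -0.34 (adjusted p = 0.068) at 6 h and Socs3 at 0.63 (adjusted p = 0.0787) at 24 h by edgeR. Without any other single mouse except Aim2-/- mouse 2 these calls were lost too, with adjusted p up to 0.118 for Socs4 and 0.444 for Socs3. In those fits calls over all genes fell from 2421 to between 95 and 422 at 6 h. At 24 h they fell from 102 to between 0 and 18. With the marker scores as terms the log2 fold change was -0.29 for Socs4 (adjusted p = 0.105) and 0.78 for Socs3 (adjusted p = 0.627). Calls over all genes then fell from 2421 to 483 at 6 h and from 102 to 5 at 24 h. Pim1 did not overlap at 6 h either, at 605, 585 and 577 against 516, 513 and 558 CPM, with a log2 fold change of 0.15 (adjusted p = 0.173). Of all tested genes, 15.1% had no overlap at 3 h, 35.6% at 6 h and 21.3% at 24 h.

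Socs2 had a higher mean level in Aim2-/- cells at each time, without a call. Its values were 15.2, 16.1 and 17.1 against 14.8, 8.64 and 14.8 CPM at 3 h, and 27.3, 20.8 and 22.0 against 16.5, 11.6 and 16.2 CPM at 6 h, with no overlap at 0, 3 and 6 h. Genes without overlap made up 28.5%, 15.1% and 35.6% of all tested genes at these times, and the same 6 mice were compared at each. At 24 h the genotypes overlapped for Socs2, at 47.1, 21.5 and 33.6 against 25.9, 16.9 and 20.5 CPM. The log2 fold changes of Socs2 were 0.64, 0.34, 0.66 and 0.69 at 0, 3, 6 and 24 h, with adjusted p by edgeR of 0.136, 0.521, 0.0689 and 0.137. Without the mouse labelled WT 1 they were 0.68, 0.46, 0.75 and 0.86, again with no call. With the marker scores as terms they were 0.49, 0.28, 0.69 and 0.12. Without Aim2-/- mouse 2, Socs2 was called at 6 h (0.74, adjusted p = 0.0362), where 25.7% of all genes were called, and at 24 h (0.93, adjusted p = 0.015), where 17.3% were. With the 4 libraries of a mouse summed, so that each mouse counted once, 0 of 9 members were called among 0.0117% of all genes, and 2 of 9, Socs2 (0.61) and Socs3 (0.28), had an unadjusted p under 0.05 by edgeR, as did 23.3% of all genes. DESeq2 called 1 of 9, Socs2 at 0.60 (adjusted p = 0.0415), and 10.1% of all genes. In these sums Socs2 was at 0.74 (adjusted p = 0.138) without the mouse labelled WT 1 and at 0.08 (adjusted p = 0.974) with the marker scores as terms by edgeR.

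**Figure D4:**
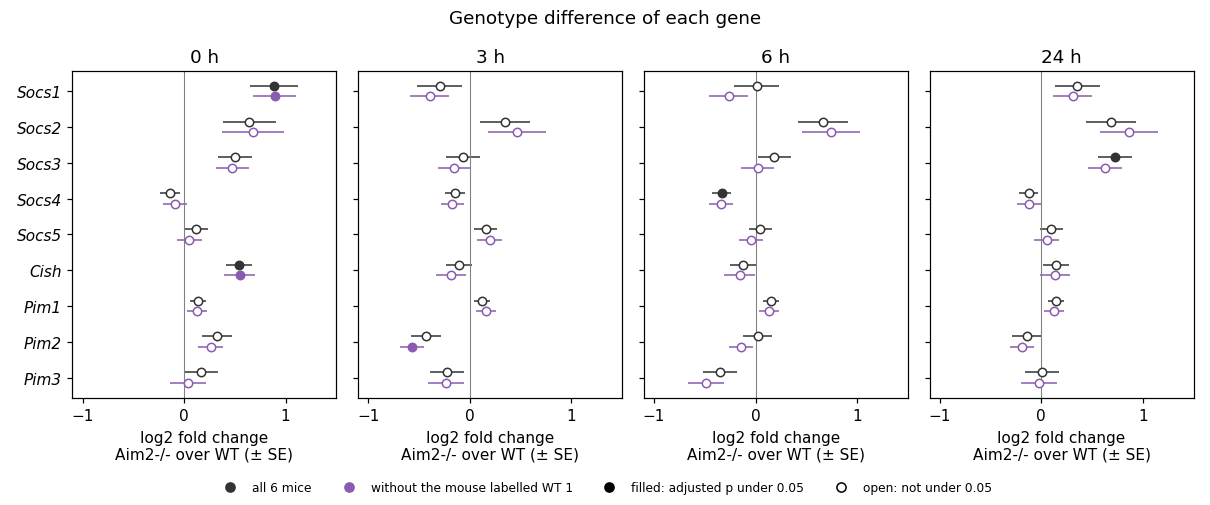
Log2 fold change of Aim2-/- over WT cells (horizontal axis, ± SE) for the 9 genes at 0, 3, 6 and 24 h, with all 6 mice and without the mouse labelled WT 1, filled where the adjusted p was under 0.05. Filled points are Socs1 and Cish at 0 h in both fits, Socs4 at 6 h and Socs3 at 24 h with all mice, and Pim2 at 3 h without that mouse.

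The response to stimulation, measured as the change of a mouse from its own 0 h library, had ranges that lay apart between the genotypes for some of these genes. At 3 h Socs1 changed by 4.04 to 4.44 on the log2 scale in WT and by 2.37 to 3.47 in Aim2-/- mice, Cish by 1.71 to 2.08 and 0.85 to 1.58, and Pim2 by 1.29 to 1.66 and 0.62 to 0.84. Socs3 changed by -0.11 to 0.32 in WT and by -0.69 to -0.30 in Aim2-/- mice. These ranges did not overlap, and neither did those of Cish at 6 and 24 h, Pim2 at 24 h, Socs4 at 6 h and Pim3 at 6 h. That is 4, 3 and 2 of 9 members at 3, 6 and 24 h, beside 13.2%, 27.8% and 21.0% of all tested genes. For each of them the exact two-sided permutation test gave p = 0.1, the smallest that 3 against 3 mice allow.

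The interaction of genotype and stimulation in edgeR called 0 of 9 members at 3 h (0% of all genes called), 0 at 6 h (0.0261%) and 0 at 24 h (0%). The difference at 3 h was -1.18 for Socs1 (SE 0.32, unadjusted p = 0.00162, adjusted p = 0.947), -0.64 for Cish (SE 0.18, unadjusted p = 0.00216, adjusted p = 0.947) and -0.76 for Pim2 (SE 0.21, unadjusted p = 0.00166, adjusted p = 0.947). Unadjusted p was under 0.05 for these 3 and Socs3 at 3 h, for Socs1, Cish and Pim3 at 6 h, and for Cish and Pim2 at 24 h, beside 4.26%, 13.2% and 11.9% of all genes. Without the mouse labelled WT 1 the differences at 3 h were -1.29 for Socs1 (adjusted p = 0.475), -0.73 for Cish (adjusted p = 0.888) and -0.83 for Pim2 (adjusted p = 0.438) by edgeR, and at 6 h that of Socs1 went from -0.87 to -1.16 (adjusted p = 0.129). With the libraries of a mouse paired as a block, Pim2 at 3 h was called at -0.74 (adjusted p = 0.0498, SE 0.14) and Cish at 6 h at -0.65 (adjusted p = 0.0195, SE 0.15) by edgeR, where 0.0587% and 4.68% of all genes were called. With pairing and without the mouse labelled WT 1, Pim2 at 3 h (-0.83, adjusted p = 0.0181), Cish at 6 h (-0.70, adjusted p = 0.0343) and Socs1 at 6 h (-1.16, adjusted p = 0.0262) were called, among 0.198% and 3.49% of all genes. Without pairing, DESeq2 called 1 member, Cish at 6 h (-0.67, adjusted p = 0.0239), among 1.98% of all genes, and 0 at 3 h. Socs1, Cish, Pim2 and Socs3 all started higher in Aim2-/- cells. Their response differences and their 0 h differences share the same 0 h libraries. At 3 h Socs1 was at 325, 430 and 375 CPM in WT and at 228, 326 and 365 CPM in Aim2-/- cells, an overlap, and Cish overlapped as well.

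**Figure D5:**
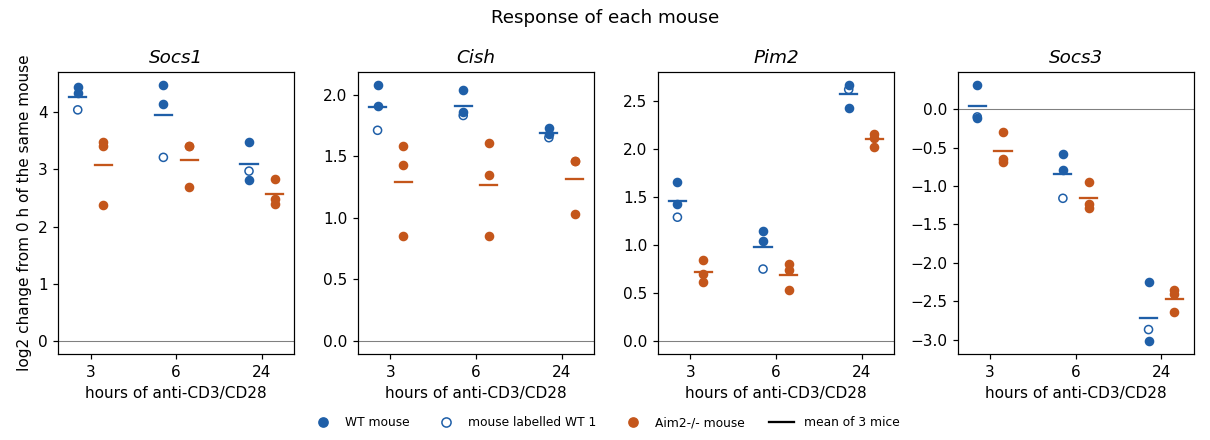
Log2 change of Socs1, Cish, Pim2 and Socs3 from the 0 h library of the same mouse (vertical axis, a separate scale per gene) at 3, 6 and 24 h, with 1 point per mouse and a line at the mean of 3 mice. At 3 h all 3 WT points lie above all 3 Aim2-/- points for each of the 4 genes. These are the members whose ranges lay apart at 3 h, as those of 13.2% of all tested genes did in either direction.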

How the data were processed

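The study's methods describe negative selection of CD4+ T cells from spleen, stranded mRNA libraries and alignment of reads to GRCm38 with STAR. The RNA sequencing that its paper reports was of naive cells and cells polarised to regulatory T cells. For this time course these methods are therefore taken as general ones. Raw read counts per gene, unnormalised, were deposited for 24 libraries. Whether counting used the strand is not given in the sources used here. GENCODE M21 symbols, positions and exon lengths matched 54409 of 54446 identifiers. Promoters are from RefSeq on GRCm38.p6.

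From these counts, edgeR 4.0.16 (R 4.3.3) fitted 8 group means over all 24 libraries with TMM factors, filterByExpr (minimum count 10) and quasi-likelihood F tests, two-sided, with Benjamini-Hochberg adjustment over the 15325 genes of each comparison. Called means an adjusted p under 0.05. The biological coefficient of variation was 18.6%. CPM use TMM-scaled totals and log2 CPM a prior count of 2. CPM are shares of a library, not molecules per cell. SE is the log2 fold change over the square root of F. The fit was also run on simulated counts drawn independently for each library, so that check leaves out the correlation between libraries of a mouse.

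Each mouse gave all 4 times per the labels, so its libraries are paired. Deviations from the group means correlated with r of 0.139 to 0.567 in 36 pairs from 1 mouse and -0.432 to 0.0742 in 72 pairs from other mice of the genotype. Alternatives were RLE factors, library totals, DESeq2 1.42.0, limma-voom (limma 3.58.1), no filter, a mean of at least 1 CPM, only the libraries compared, marker scores as terms, mouse or mouse number as a replicate block, and each mouse left out in turn. Named genes are the 9 members, Aim2, the 2 genes of highest r with each member (at least 10 CPM, no clone names), and up to 4 called genes per pathway list with the largest change at 3 h or 24 h in WT cells. A gene that this rule selects by r is not reported here. Members and lists were chosen with earlier results of these data known, and the lists come from general knowledge of the pathway. P-values of the main fit rest on the spread of libraries within groups and take the 4 libraries of a mouse as independent. With mouse as a block they rest on the spread within mice. Those of the summed libraries and of the permutation test rest on the spread between these mice.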

Additional observations from a re-analysis of the deposited data

Results flagged for a closer look

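The response differences of Pim2 at 3 h and Cish at 6 h between the genotypes passed a test of the difference itself when libraries of a mouse were paired as a block in edgeR. At 3 h the rise of Pim2 in Aim2-/- cells differed from that in WT cells by -0.74 on the log2 scale (SE 0.14, adjusted p = 0.0498), and without pairing the difference was -0.76 (adjusted p = 0.947). At 6 h the rise of Cish differed by -0.65 (SE 0.15, adjusted p = 0.0195), and without pairing it was -0.66 (adjusted p = 0.116). Without the mouse labelled WT 1 the paired differences were -0.83 for Pim2 (adjusted p = 0.0181) and -0.70 for Cish (adjusted p = 0.0343), and without pairing the adjusted p was 0.438 and 0.213. In each case all 3 Aim2-/- mice changed less than all 3 WT mice. Ranges lay apart, in either direction, for 13.2% of all tested genes at 3 h and 27.8% at 6 h. These differences share their 0 h libraries with the genotype differences at 0 h, which were 0.33 for Pim2 and 0.54 for Cish. Between genotypes at the later time, Pim2 was at -0.43 at 3 h (adjusted p = 0.191) and Cish at -0.12 at 6 h (adjusted p = 0.535) by edgeR. The B cell, myeloid and basophil marker sums were higher in every Aim2-/- than in every WT library at 0, 3 and 6 h, and with B cell, myeloid and erythroid scores as terms, without pairing, the differences were -0.81 for Pim2 (adjusted p = 0.417) and -0.66 for Cish (adjusted p = 0.0722) by edgeR. The part of the basophil markers was not tested.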

How the results depend on the processing

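Of 2448 values of single members under alternatives, none changed sign in a called value, and 109 values called in neither setting had the opposite sign. Of the stimulation values under alternatives, called or not, 1291 kept direction and side of the threshold, 23 passed it and 36 fell below it. Genotype values gave 617, 20 and 29, and response differences 423, 9 and 0.

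Counts of called members that moved by over 1.5 times were these. From 3 to 6 h, with only the libraries compared, 3 in place of 5 were called in WT and 0 in place of 3 in Aim2-/- cells, and 5 in Aim2-/- cells with mouse as a replicate block. Between genotypes at 0 h, 2 became 1 with limma-voom and 0 with marker scores, and at 3 h 0 became 1 without a filter. At 6 h 1 became 0 with library totals, only the libraries compared or marker scores, 2 with DESeq2 and 3 without a filter. At 24 h 1 became 0 with RLE factors, limma-voom, only the libraries compared or marker scores, and 2 without a filter. For the response difference, 0 became 1 at 3 h and 2 at 6 h without a filter, 1 at 6 h with DESeq2, 1 at both times with mouse as a replicate block, and 1 at 3 h and 2 at 6 h with that block and without the mouse labelled WT 1, a fit chosen after seeing the data. The summed libraries gave 1 in place of 0 with DESeq2. The cause of these moves was not tested. Without a filter, calls over all 31367 genes were 775, 2942 and 962 between genotypes at 3, 6 and 24 h. For the response difference they were 6 at 3 h and 147 at 6 h. DESeq2 called 3311 of 15325 genes between genotypes at 6 h. Mouse number as a replicate block over both genotypes called 5, 1, 2 and 2 members at 0, 3, 6 and 24 h. Calls over all genes were then 3613, 2324, 5516 and 3235 of 15325. In the summed libraries this block called 1 member and 2089 of 17163 genes. The labels do not say that a number shared across genotypes joins mice. The paired block changed no call of a member other than those given here and in the report, besides Socs2 at 24 against 6 h in WT (adjusted p = 0.00558) and Aim2-/- cells (0.00497), Socs2 (0.0109) and Pim3 (0.00879) at 6 against 3 h and Socs4 at 24 against 6 h (0.0382) in Aim2-/- cells, all gained by edgeR.

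Leaving out 1 mouse gave 0 to 2 called members between genotypes at 0 h, 0 to 1 at 3 h, 0 to 2 at 6 h, 0 to 2 at 24 h and 0 to 1 in the summed libraries, 2 to 5 and 1 to 3 from 3 to 6 h in WT and Aim2-/- cells, and 3 to 5 at 3 h against 0 h in Aim2-/- cells. Calls over all genes between genotypes without 1 mouse ranged from 30 to 2139 at 0 h and from 1 to 1143 at 3 h. At 6 h they ranged from 95 to 4020, at 24 h from 0 to 2702, and in the summed libraries from 0 to 2939. Against 0 h, scaling by library totals moved the median log2 fold change of all genes by 0.107 at 3 h and 0.089 at 6 h in WT cells. In Aim2-/- cells it moved by 0.116 at 3 h and 0.12 at 6 h, and between genotypes by 0.053 at 6 h. Alternatives for the summed level of the 9 genes were chosen after seeing the data. Its log2 difference between genotypes was 0.28 at 0 h and stayed between 0.25 and 0.31 without 1 mouse, whereas that of 0.02 at 6 h lay between -0.09 and 0.09. At 19715161 or more counts per library, depth did not limit the members, all of which lay far above the floor.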
